A study of Mus musculus with 10 samples.

Results

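The tumor suppressor p53, encoded by *Trp53*, its regulators and a broad set of its known target genes were examined in the *Emx1*+ lineage of the embryonic cortex with and without *Cdkn1c*. The set holds 41 genes. It was given as a list of mouse symbols, and each symbol mapped to exactly 1 of the 53379 genes counted. *Cdkn1a*, the sestrins and the core apoptosis genes were not part of the set, although p53 also acts on several of them.

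Expression was measured by RNA-seq in 3 cKO and 7 control libraries. Control MADM-7 embryos carried the GT and TG cassettes of MADM-7 and 1 copy of Emx1-Cre. Mutant embryos were cKO-*Cdkn1c*-MADM-7, with the same chromosome 7 MADM cassettes and the same Emx1-Cre driver, and a Cdkn1c-flox allele on both copies of chromosome 7. MADM cassettes mark single cells with GFP, tdT or both after Cre recombination between chromosomes. All embryos were taken at E16 on a mixed C57BL/6J, CD1 background, and 1 embryo gave 1 library of 400 marked neocortex cells of every color, sorted together. Deletion was limited to cells with a history of *Emx1* expression, so other cells of the embryo kept the gene. Summed projection neuron markers reached 5176 to 6763 CPM (counts scaled to library size, with TMM factors) in cKO and 7596 to 10394 CPM in controls. Summed microglial markers had 5.12 to 44.5 CPM in cKO and 0 to 6.48 CPM in controls, and those of endothelium and pericytes had 4.38 to 24.0 CPM and 2.54 to 11.6 CPM. The part of these differences in the values of the p53 targets was not tested.

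p53 is a transcription factor that is kept at a low level by the ubiquitin ligase Mdm2 and its partner Mdm4. Stress signals such as DNA damage stabilize the protein, usually without a change in its mRNA, and it then binds pairs of short half-sites in DNA and induces genes for growth arrest, DNA repair, metabolism and cell death. Several of its targets, Mdm2, Ppm1d and Ccng1 among them, in turn restrain p53, and the developing cortex is known for neural progenitors that die readily when p53 is active.

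Reads on genes ran from 2417184 to 2998916 in cKO libraries and from 1738220 to 3362487 in the control ones (*p* = 0.583 in an exact permutation test, two-sided). More genes had at least 1 read in cKO, 17986 to 18319 against 16802 to 18100 (*p* = 0.0333, same exact test). *Cdkn1c* itself had 10.8, 3.94 and 7.64 CPM in the cKO libraries, against 67.5 to 131 CPM in controls (log2 fold change -3.66, SE 0.31). The libraries fell into a set with 5.47% to 8.64% of uniquely aligned reads outside genes (1 cKO, 4 controls) and a set with 12.8% to 16.7% (2 cKO, 3 controls), for which the labels name no batch. Reads were amplified without molecular identifiers. Intervals cover counting error and the spread between libraries, in which embryo, sorting, amplification and library preparation cannot be told apart.

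Part of the p53 target set was called higher in cKO, and none of it was called lower. Of the 41 genes, 35 had a mean of at least 10 reads and were tested. After adjustment over all 11551 genes tested, 7 passed the threshold of 0.05 as higher in cKO (20% of 35, where 2.27% of all genes tested were called higher) and 0 as lower (0.883% of all genes tested were called lower). The 7 genes were *Phlda3*, *Eda2r*, *Psrc1*, *Dcxr*, *Sulf2*, *Rps27l* and *Ckap2*, with log2 fold changes from 0.63 to 4.19. At an unadjusted *p* under 0.05 there were 16 higher genes and 1 lower gene, *Mdm2* (together 48.6% of 35, where 16.4% of all genes tested passed in either direction). *Eda2r*, *Pvt1* and *Ephx1* passed the filter only through their reads in cKO, so they had to be higher there to be tested. Over the other 32 genes, 6 were called higher (18.8%, beside 1.71% of the 11315 genes whose controls alone averaged at least 10 reads), and 13 higher and 1 lower passed the unadjusted threshold (43.8%, beside 15.3%). DESeq2 called 7 genes higher and limma-voom 6, and neither called any lower. The count was 4 without cKO replicate 3, which left *Phlda3*, *Eda2r*, *Dcxr* and *Psrc1*. In bulk RNA, fewer cells of a type and less RNA per cell cannot be told apart, and this holds for every difference below.

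The median log2 fold change over the 35 genes was 0.555, beside 0.0112 over all genes tested. Without *Eda2r*, *Pvt1* and *Ephx1* the median was 0.476, and the estimate was positive in 20 of 32 genes (62.5%, beside 50.2% of the 11315 genes whose controls alone reached the filter). Over all tested genes of the set, leaving out cKO replicate 1, 2 or 3 gave medians of 0.473, 0.407 and 0.431. Among libraries with 5.47% to 8.64% of reads outside genes, the median log2 ratio of CPM over the 32 genes was 0.429, with 20 ratios positive, and within the other set it was 0.241, with 22 positive. With 1 and 2 cKO libraries in those sets, these ratios are a description with no test.

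**Figure D1:**
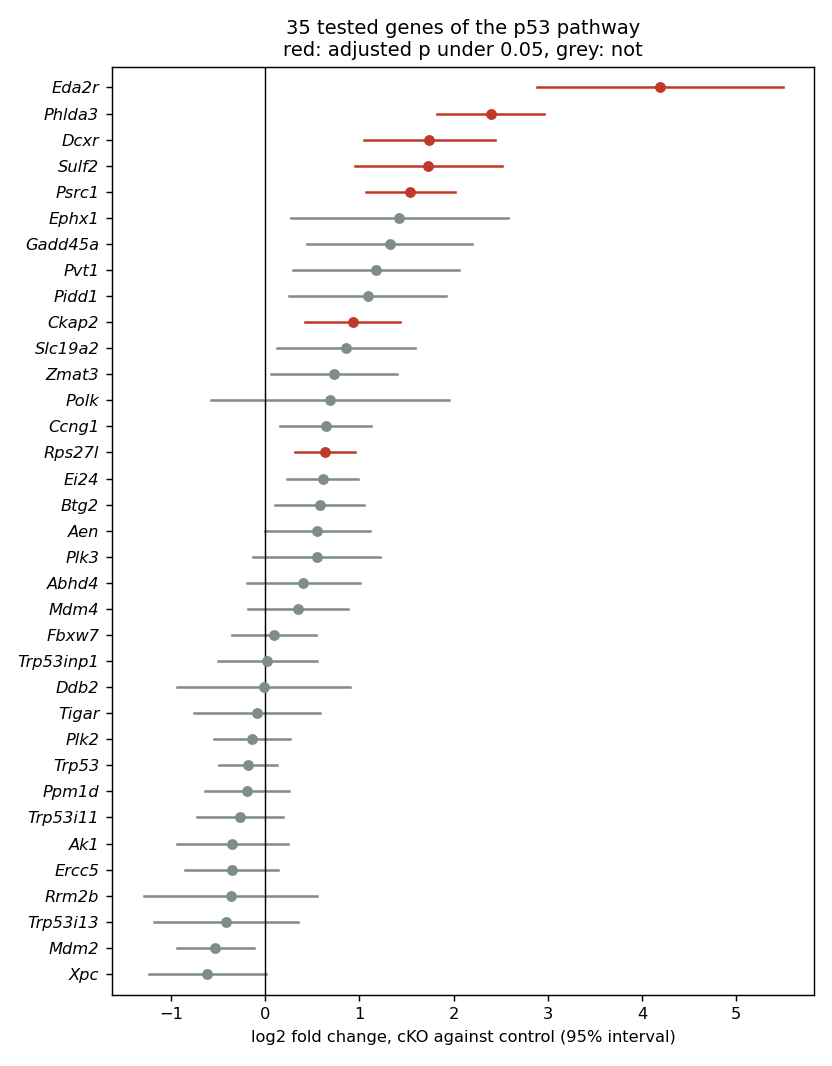
Log2 fold change of cKO against control (x axis) for the 35 tested genes of the p53 pathway (y axis), with 95% intervals from edgeR's quasi-likelihood fit; red marks the 7 genes with an adjusted p under 0.05. The red genes all lie right of 0, from 0.63 for *Rps27l* to 4.19 for *Eda2r*, and the lowest estimate is -0.61 for *Xpc*.

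Promoter sequence was read where the RefSeq table of GRCm38.p6 held a window of 250 bases before to 50 bases after a start, which it did for 32 of the 41 genes. A window was searched for the 10-letter p53 half-site consensus, a palindrome that reads alike on both strands. It was also searched for an adjacent pair of half-sites that matched the consensus in at least 17 of 20 letters with the C and G of each core intact, a rule that was chosen after sequences had been seen. A pair can contain an exact half-site, so the searches overlap. An exact half-site occurred in 11 of the 32 genes (34.4%) and in 9.55% of all 27025 genes with a window. A pair occurred in 6 of the 32 (18.8%) and in 1.63% of all genes, and 2 exact half-sites with a spacer of at most 13 bases occurred in none of the 32 and in 0.0740% of all genes. Among the 7 genes called higher, *Rps27l* and *Ckap2* held both an exact half-site and a pair (28.6% of the 7 in each search). The windows of *Phlda3*, *Eda2r*, *Dcxr*, *Psrc1* and *Sulf2* held neither. A match is a string of letters and not a bound site, and the windows leave out most introns and distal sequence.

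The stretches below are shown because they belong to these called genes (*Rps27l*, *Ckap2*), to targets with positive estimates that missed the threshold (*Ccng1*, *Aen*), to *Tigar*, the remaining target with a pair, whose estimate was near 0, and to *Trp53* and *Mdm2* themselves. They are written 5′ to 3′ along the strand of the gene, with the pair of half-sites, or the single half-site of *Mdm2*, in capitals.
Rps27l: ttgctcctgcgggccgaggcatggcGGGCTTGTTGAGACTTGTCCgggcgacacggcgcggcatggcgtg
Ckap2: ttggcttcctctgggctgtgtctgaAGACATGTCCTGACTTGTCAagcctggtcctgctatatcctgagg
Ccng1: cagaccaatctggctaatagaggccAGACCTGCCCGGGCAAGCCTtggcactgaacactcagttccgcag
Aen: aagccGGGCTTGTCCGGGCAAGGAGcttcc
Tigar: gcggcGGTCTAGCTCTGGCAAGACTccagg
Trp53: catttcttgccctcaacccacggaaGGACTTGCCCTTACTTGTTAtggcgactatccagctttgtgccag
Mdm2: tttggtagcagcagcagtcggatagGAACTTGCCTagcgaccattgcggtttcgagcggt

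The *Rps27l* stretch is chr9:66946271-66946340 (plus strand), and its pair matched 19 of 20 letters at 117 to 98 bases before a RefSeq start. GENCODE M21 also lists *Rps27l* transcripts with an earlier start, for which the pair lies in an intron. The *Ckap2* stretch is chr8:22185978-22186047 (minus strand), with 18 of 20 letters at 203 to 184 bases before the start. The *Ccng1* stretch is chr11:40755437-40755506 (minus strand), with 19 of 20 letters. The estimates of *Rps27l* and *Ccng1* in expression were of similar size (log2 fold changes 0.63 and 0.64), and only the first passed the threshold. The *Aen* stretch is chr7:78895932-78895961 (plus strand) and lies in an exon of an *Aen* transcript with an earlier start. The *Tigar* stretch is chr6:127109741-127109770 (minus strand) and lies in an exon of the antisense gene *Platr31*. The *Trp53* stretch is chr11:69580259-69580328 (plus strand). The pairs of *Aen*, *Tigar* and *Trp53* each matched 17 of 20 letters. The *Mdm2* stretch is chr10:117710910-117710969 (minus strand), where the exact half-site lies 186 to 177 bases before the start.

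Transcripts of p53 and of its direct negative regulators were examined first. None of *Trp53*, *Mdm2*, *Mdm4* and *Ppm1d* passed the threshold. *Trp53* (ENSMUSG00000059552.13, GRCm38 chromosome 11, 69580359 to 69591873) had 170, 201 and 238 CPM in the 3 cKO libraries and 196 to 264 CPM in controls, with a median of 234. The genotypes overlapped, with cKO replicate 1 below every control. Its log2 fold change was -0.18 (SE 0.15, 95% interval -0.49 to 0.13, adjusted *p* = 0.606). It was among the more abundant genes of the set per length, at 56.8 ± 6.41 RPKM (CPM per kilobase of exon, SD, n = 7) in controls.

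*Mdm2* (ENSMUSG00000020184.15, chromosome 10, 117688875 to 117710758), the ubiquitin ligase that targets p53 for degradation and is itself a p53 target, had 38.5, 59.1 and 58.6 CPM in cKO and 52.98 to 86.1 CPM in controls, with a median of 75.3. All cKO libraries lay below 6 of the 7 controls, and the single overlap came from control replicate 5 at 52.98 CPM. The log2 fold change was -0.53 (SE 0.19, unadjusted *p* = 0.0143), and it missed the threshold after adjustment (adjusted *p* = 0.167). It was the only gene of the set that passed an unadjusted *p* of 0.05 with lower values in cKO. *Mdm4*, the relative of Mdm2 that binds the activation domain of p53, had 90.7, 74.9 and 45.0 CPM in cKO and 40.0 to 81.5 CPM in controls, with a median of 48.9. Its values overlapped over nearly the whole range (log2 fold change 0.34, SE 0.25, adjusted *p* = 0.553). *Ppm1d*, the phosphatase Wip1 that dephosphorylates p53, had 46.9, 32.7 and 37.8 CPM in cKO and 36.2 to 54.7 CPM in controls, with a median of 44.4, and also overlapped (log2 fold change -0.19, SE 0.21, adjusted *p* = 0.717).

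**Figure D2:**
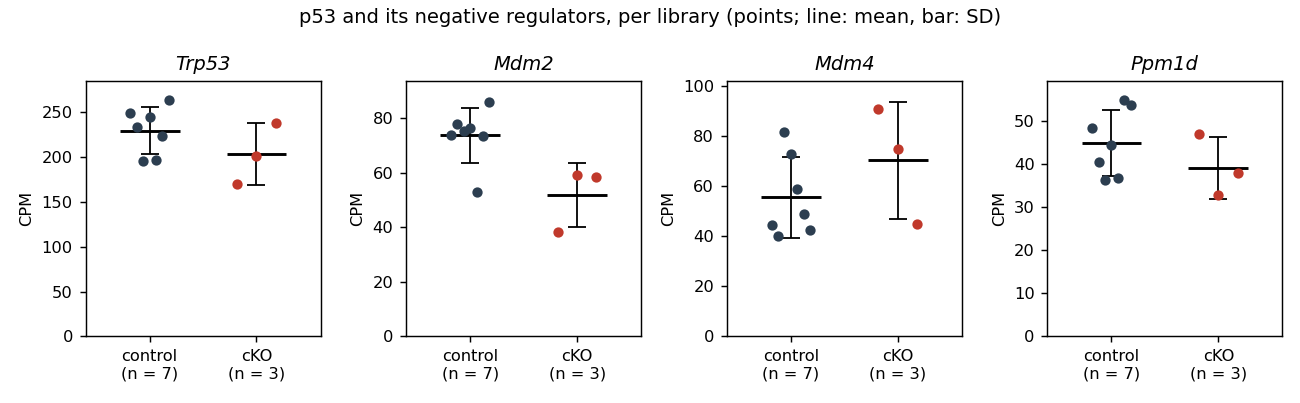
Expression in CPM (y axis, from 0) of *Trp53*, *Mdm2*, *Mdm4* and *Ppm1d* in each control (n = 7) and cKO (n = 3) library; points are libraries, lines are means and bars are SD. The genotypes overlap in each panel, and in *Mdm2* the cKO points at 38.5, 58.6 and 59.1 CPM overlap only the control at 52.98 CPM.

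Other regulators in the set had estimates on both sides of 0. *Ccng1*, encoding cyclin G1, which guides a phosphatase to Mdm2, had 42.5, 41.8 and 59.4 CPM in cKO and 21.05 to 43.8 CPM in controls, with a median of 28.8. Only control replicate 4, at 43.8 CPM, reached into the cKO range (log2 fold change 0.64, SE 0.23, adjusted *p* = 0.151). *Zmat3*, an RNA-binding protein that p53 induces, had a log2 fold change of 0.73 (SE 0.32, adjusted *p* = 0.256). *Fbxw7*, the substrate receptor of a ubiquitin ligase, had one of 0.09 (SE 0.21, adjusted *p* = 0.880). Of the 7 genes in this group, *Mdm2*, *Ccng1* and *Zmat3* had an unadjusted *p* under 0.05.

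Targets linked to cell death and survival held 3 of the 7 called genes, or 2 of the 6 without *Eda2r*. Of 10 such genes 8 were tested, and the 7 other than *Eda2r* had positive estimates (median log2 fold change 0.609). *Phlda3* (ENSMUSG00000041801.5, chromosome 1, 135766119 to 135769136) encodes a pleckstrin homology domain protein that competes with the kinase Akt for membrane lipids. It had 64.1, 36.6 and 69.6 CPM in cKO and 5.82 to 14.6 CPM in controls, with a median of 9.71. The lowest cKO library was more than 2 times the highest control. The change was 5.26-fold (log2 fold change 2.39, SE 0.27, adjusted *p* = 7.41e-05) and kept its call in all 17 alternative analyses, which used another test, scaling, filter, covariate or count column or left out a library.

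*Eda2r* (ENSMUSG00000034457.10, chromosome X, 97333840 to 97377216) encodes a receptor of the tumor necrosis factor family. It had 47, 39 and 46 reads in cKO, equal to 15.9, 15.4 and 19.5 CPM. In controls 5 of the 7 libraries had 0 reads, and the others had 1.45 and 4.22 CPM. A count of 0 allows up to 3 reads. No control reached the cKO range. The controls averaged 2.43 reads and the gene was tested only because of its cKO reads, so its call is not counted as support for the group. The log2 fold change was 4.19 (SE 0.63, adjusted *p* = 0.000231), and it was 5.84 without control replicate 4, so its size rests on few control reads. DESeq2 did not call it (adjusted *p* = 0.202), and limma-voom did (adjusted *p* = 0.000776).

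*Rps27l* (ENSMUSG00000036781.13, chromosome 9, 66946086 to 66949516), a paralog of the ribosomal protein gene *Rps27* that p53 induces, had 196, 258 and 294 CPM in cKO and 130 to 190 CPM in controls, with a median of 159. All cKO libraries lay above all controls, although cKO replicate 1 did so by a small margin. The change was 1.55-fold (log2 fold change 0.63, SE 0.15, adjusted *p* = 0.0274), and 7 of the 17 alternatives lost the call, among them those without cKO replicate 2 or 3. Reads that aligned to more than 1 place were discarded by the authors, so reads shared with near copies of *Rps27l* are missing from its count.

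The remaining genes of this group were not called. *Ei24*, a membrane protein of the endoplasmic reticulum, had 88.0, 59.9 and 78.9 CPM in cKO and 39.0 to 56.0 CPM in controls, with a median of 52.3. The genotypes did not overlap (log2 fold change 0.61, SE 0.18, adjusted *p* = 0.0753), and DESeq2 called it (adjusted *p* = 0.0293). An antisense gene overlaps 6.66% of its exon bases, and the counts do not use strand. *Pidd1*, a scaffold of the caspase-activating PIDDosome, had 31.4, 7.49 and 16.5 CPM in cKO against 2.91 to 12.8 CPM in controls (log2 fold change 1.09, SE 0.39, adjusted *p* = 0.162). Its cKO replicate 2 lay within the controls. The estimates for the nuclease gene *Aen*, the lipid hydrolase gene *Abhd4* and the autophagy gene *Trp53inp1* were 0.55, 0.40 and 0.02. *Perp*, a p53 effector in the plasma membrane, and *Tnfrsf10b*, a receptor of the death ligand TRAIL, fell below the filter. *Perp* had 11, 6 and 20 reads in cKO and 0 to 16 in controls, and *Tnfrsf10b* had 6, 2 and 2 reads in cKO and 0 to 6 in controls.

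Among the 6 genes of growth arrest, polo-like kinases and the spindle, 2 were called, and 5 had positive estimates (median log2 fold change 0.752). *Psrc1* (ENSMUSG00000068744.12, chromosome 3, 108383839 to 108388231) encodes a microtubule-associated protein of the mitotic spindle. It had 55.3, 61.1 and 80.2 CPM in cKO and 12.8 to 29.5 CPM in controls, with a median of 23.0, so that the genotypes lay far apart. The change was 2.91-fold (log2 fold change 1.54, SE 0.22, adjusted *p* = 0.000632) and kept its call in all 17 alternatives. *Ckap2* (ENSMUSG00000037725.8, chromosome 8, 22168160 to 22185819), another protein of the spindle microtubules, had 34.7, 83.9 and 56.0 CPM in cKO and 25.8 to 37.8 CPM in controls, with a median of 29.6. It was the called gene whose genotypes overlapped, because cKO replicate 1 lay within the controls. Its log2 fold change was 0.93 (SE 0.24, adjusted *p* = 0.0414), and 12 of the 17 alternatives lost the call, including the removal of any control library.

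The levels of *Psrc1* and *Ckap2* stand beside those of 12 cell-cycle genes that p53 is known to lower through p21 and the DREAM repressor complex. All 12 were tested, and 4 were called higher (*Ccnb1*, *Ccnb2*, *Cdk1* and *Birc5*) and 0 lower. Among all genes tested, 2.27% were called higher and 0.883% lower. The summed level of the 12 was 579 to 1603 CPM in cKO and 480 to 919 CPM in controls. *Ccnb1* and *Ccnb2*, the cyclins of mitotic entry, had log2 fold changes of 1.20 (SE 0.30) and 1.19 (SE 0.27). *Cdk1*, their kinase partner, and *Birc5*, which encodes survivin, had ones of 1.05 (SE 0.26) and 1.09 (SE 0.27). In each of these 4 genes the lowest cKO library lay below the highest control, as in *Ccnb1* (65.4 against 94.9 CPM). The part of the 12 genes in the values of *Psrc1* and *Ckap2* was not tested.

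*Gadd45a*, a stress sensor induced by p53 and by other factors, had 10.5, 9.06 and 14.8 CPM in cKO and 1.77 to 8.89 CPM in controls, with a median of 3.89. The genotypes did not overlap, by a narrow margin at control replicate 7, and the threshold was missed (log2 fold change 1.32, SE 0.42, adjusted *p* = 0.101). Without the filter on low counts it was called (adjusted *p* = 0.0488). A gene on the opposite strand overlaps 19.1% of its exon bases. *Btg2*, an antiproliferative factor of neurogenic progenitors, had 128, 175 and 219 CPM in cKO and 71.5 to 178 CPM in controls (log2 fold change 0.58, SE 0.22, adjusted *p* = 0.192). The polo-like kinases *Plk3* and *Plk2* had log2 fold changes of 0.55 (SE 0.32) and -0.14 (SE 0.19). *Btg2*, *Gadd45a* and the polo-like kinase genes also respond to neuronal activity and to tissue dissociation. Of 17 tested immediate early and dissociation genes, 7 were called higher (*Fos*, *Fosb*, *Egr1*, *Egr3*, *Dusp1*, *Klf4* and *Npas4*) and 0 lower, with a summed level of 1864 to 3595 CPM in cKO and 1070 to 1773 CPM in controls. The share called higher over all genes tested was 2.27%. The part of the immediate early and dissociation genes in the values of these p53 targets was not tested.

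Genes of DNA repair and nucleotide supply gave no call, and 4 of the 5 had negative estimates (median log2 fold change -0.355). *Xpc*, the damage sensor of nucleotide excision repair, had 10.8, 12.2 and 20.4 CPM in cKO and 16.9 to 30.2 CPM in controls (log2 fold change -0.61, SE 0.30, adjusted *p* = 0.317). In 2 cKO libraries it lay below every control. *Ddb2*, which hands ultraviolet damage to Xpc, had a log2 fold change of -0.02 with an interval of -0.94 to 0.90, and its neighbor *Acp2* on the opposite strand overlaps 23.8% of its exon bases. *Ercc5*, a repair endonuclease, had one of -0.36 (SE 0.23), and *Rrm2b*, the p53-inducible subunit of ribonucleotide reductase, one of -0.37 (SE 0.44). *Polk*, a translesion polymerase, had one of 0.69 with an interval of -0.58 to 1.95. None of the 5 had an unadjusted *p* under 0.05.

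**Figure D3:**
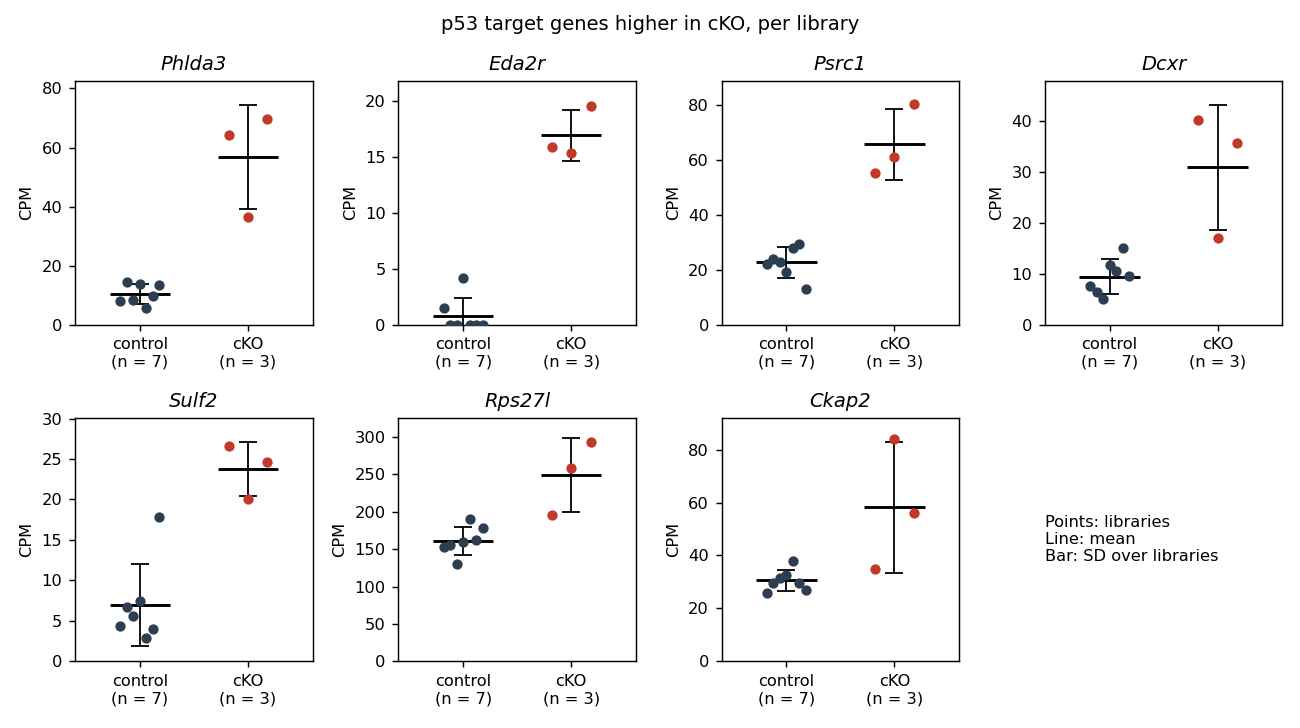
Expression in CPM (y axis, from 0) of the 7 called genes in each control (n = 7) and cKO (n = 3) library; points are libraries, lines are means and bars are SD. The cKO points lie above all controls in 6 panels, and in *Ckap2* cKO replicate 1 at 34.7 CPM lies below the highest control at 37.8 CPM.

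Among 9 genes of metabolism, transport and secreted proteins, 6 were tested and 2 were called. *Dcxr* (ENSMUSG00000039450.11, chromosome 11, 120725399 to 120727281) encodes dicarbonyl and L-xylulose reductase, an enzyme of sugar metabolism. It had 40.1, 16.9 and 35.6 CPM in cKO and 5.00 to 15.1 CPM in controls, with a median of 9.60. The genotypes did not overlap, although cKO replicate 2 lay close to the highest control. The change was 3.34-fold (log2 fold change 1.74, SE 0.33, adjusted *p* = 0.0056) and kept its call in all 17 alternatives. *Sulf2* (ENSMUSG00000006800.14, chromosome 2, 166073089 to 166155663), an extracellular sulfatase that trims heparan sulfate, had 26.6, 20.1 and 24.6 CPM in cKO and 2.91 to 17.8 CPM in controls, with a median of 5.59. All but one of the controls lay at or below 7.46 CPM, and the exception was control replicate 7. The change was 3.32-fold (log2 fold change 1.73, SE 0.37, adjusted *p* = 0.0147), and the call was lost without cKO replicate 1 or cKO replicate 3, with a highest adjusted *p* of 0.0551.

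*Slc19a2*, a thiamine transporter, had 8.77, 8.67 and 18.7 CPM in cKO and 4.98 to 8.43 CPM in controls, with a median of 6.53. The genotypes did not overlap, but 2 of the cKO libraries lay just above the highest control, and the gene was not called (log2 fold change 0.86, SE 0.35, adjusted *p* = 0.216). *Ephx1*, an epoxide hydrolase that also passed the filter through cKO, had a log2 fold change of 1.43 (SE 0.55, adjusted *p* = 0.187). *Tigar*, which lowers glycolytic flux, and *Ak1*, an adenylate kinase, had ones of -0.09 (SE 0.32) and -0.35 (SE 0.28). *Gdf15*, a secreted stress factor of the TGF-β family, was below the filter, with 1, 10 and 18 reads in cKO. In controls 6 of 7 libraries had 0 reads of it, and the other had 1. Without the filter it was called (adjusted *p* = 0.000104), a value that rests on few reads. The peptide transporter gene *Tap1* had 11, 0 and 14 reads in cKO and 0 to 7 in controls, and the lipid transfer gene *Pltp* had 9, 4 and 11 in cKO and 0 to 9 in controls.

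Both long non-coding RNAs of the set were scarce. *Pvt1*, next to the *Myc* gene, had 9.44, 4.33 and 8.49 CPM in cKO and 1.16 to 5.00 CPM in controls (log2 fold change 1.17, SE 0.42, adjusted *p* = 0.155), and cKO replicate 2 lay within the controls. *Trp53cor1*, known as lincRNA-p21, had 0, 3 and 5 reads in cKO and 0 reads in each of the 7 controls, which is too few to compare. Another non-coding gene on the opposite strand overlaps 44.1% of its exon bases, so part of its reads may have been set aside as ambiguous. *Trp53i11* and *Trp53i13*, p53-inducible genes for membrane proteins, had log2 fold changes of -0.27 (SE 0.22) and -0.42 (SE 0.36).

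Across the set, 9 genes had all cKO libraries above all controls (25.7% of 35, where 3.32% of all genes tested did), and 0 had all cKO libraries below all controls (2.68% of all genes tested). The 9 were the called genes other than *Ckap2*, with *Ei24*, *Gadd45a* and *Slc19a2*. Without *Eda2r* and the other genes tested only through cKO, the count was 8 of 32 (25%, beside 2.76% of the 11315 genes). The cKO libraries differed among themselves. Over the 32 genes tested without help of their cKO reads, 12, 11 and 15 lay above every control in cKO replicates 1, 2 and 3 (37.5%, 34.4% and 46.9%), and 4, 6 and 0 lay below every control. Of the 11315 genes, 22.1%, 20.1% and 18.01% lay above and 23.9%, 21.7% and 16.8% below. Single controls set against the other 6 controls had 2 to 8 of the 32 genes above and 1 to 11 below, with the 11 in control replicate 5. The median deviation from the control mean over the 32 genes, on the log2(CPM + 1) scale, was 0.225, 0.274 and 0.399 in cKO replicates 1, 2 and 3, while single controls had -0.137 to 0.147. *Pidd1* and *Aen* were highest in cKO replicate 1, *Ckap2* and *Zmat3* in cKO replicate 2, and *Slc19a2*, *Abhd4*, *Ccng1* and *Btg2* in cKO replicate 3. *Phlda3*, *Dcxr* and *Pidd1* were lowest in cKO replicate 2 among the cKO libraries.

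**Figure D4:**
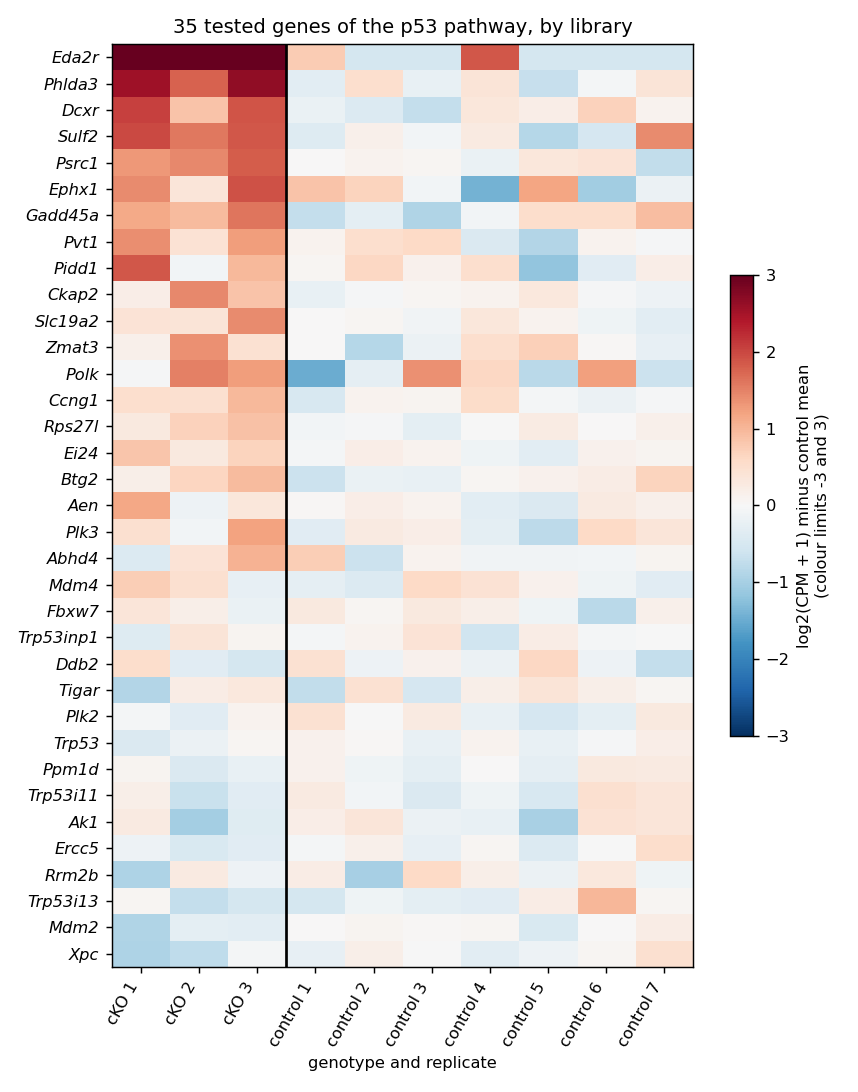
Deviation of log2(CPM + 1) from the control mean (color, limited to -3 and 3) for the 35 tested genes (y axis, ordered by log2 fold change) in the 3 cKO and 7 control libraries (x axis). The top 5 genes are higher in all 3 cKO libraries, and further down the cKO libraries differ among themselves, as in *Pidd1*, highest in cKO replicate 1, and *Ckap2*, highest in cKO replicate 2.

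For the 28 tested genes that were not called, the precision differed. In 13 of them the 95% interval lay within -1 and 1 on the log2 scale, so that a 2-fold change in either direction lies outside the interval. *Trp53*, *Mdm2*, *Mdm4*, *Ppm1d*, *Plk2* and *Trp53i11* were among these. *Polk*, *Rrm2b*, *Xpc*, *Trp53i13* and *Gadd45a* had intervals that reach past 1 or -1. The median SE over the 35 genes was 0.28 on the log2 scale.

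Per length of exon, control levels of the 35 genes spanned from 197 RPKM for *Rps27l* to 0.137 RPKM for *Eda2r*. After *Rps27l* came *Trp53i11* (92.5 ± 23.8 RPKM, SD, n = 7), *Plk2* (65.7 ± 16.1) and *Trp53* (56.8 ± 6.41), and among these last 3 the spreads of neighbors overlapped. The called genes other than *Rps27l* all lay below 10 RPKM in controls, with *Ckap2* at 9.51 ± 1.25, *Dcxr* at 8.23 ± 2.99, *Phlda3* at 6.76 ± 2.17 and *Psrc1* at 6.73 ± 1.66 RPKM. *Rps27l* and *Trp53* were also among the steadiest genes between control embryos, with coefficients of variation of 11.9% and 11.3%. In *Sulf2* and *Eda2r* the coefficients were 72.0% and 197%.

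Genes around the set were counted from lists. Of 21 tested p53 regulators outside the set, 1 was called higher, *Trp73*, which encodes the p53 relative p73, and 0 lower. The median log2 fold change of these 21 was 0.00746. Over all genes tested, 2.27% were called higher. *Trp73* had 20.9 to 35.2 CPM in cKO and 0 to 11.3 CPM in controls (log2 fold change 2.69, SE 0.45, adjusted *p* = 0.00214). It is also a marker of Cajal-Retzius cells, the early reelin-secreting neurons of the marginal zone. Of 6 tested Cajal-Retzius markers, 6 were called higher (*Reln*, *Trp73*, *Lhx5*, *Lhx1*, *Cacna2d2* and *Calb2*), and the 7 listed markers summed to 548 to 669 CPM in cKO and 16.3 to 168 CPM in controls. *Trp73*, *Lhx5*, *Lhx1* and *Cacna2d2* were at 0 in at least 1 control library. The part of these cells in the values of the p53 targets was not tested.

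Calls among p53 targets outside the set were all in the direction of higher values in cKO. *Cdkn1a*, encoding the cell-cycle inhibitor p21, had 209, 163 and 360 CPM in cKO and 9.71 to 69.2 CPM in controls (log2 fold change 3.27, SE 0.36, adjusted *p* = 5.8e-05). *Sesn2*, a stress-induced inhibitor of mTORC1, and *Bbc3*, which encodes the death inducer PUMA, were also called higher (log2 fold change 2.70, SE 0.32, and 1.95, SE 0.45). *Bbc3* ran from 16.2 to 127 CPM in cKO and from 7.57 to 23.2 CPM in controls, so the genotypes overlapped. Together *Cdkn1a*, *Sesn2* and *Bbc3* made 3 calls among 7 tested genes of that list, and 0 were called lower. The other tested genes, *Bax*, *Apaf1*, *Sesn1* and *Bid*, had log2 fold changes of 0.30, 0.27, -0.32 and -0.28. Over all genes tested, 2.27% were called higher. In a list of further reported targets *Gtse1*, a spindle protein that dampens p53, was the 1 call among 6 tested (log2 fold change 1.75, SE 0.30). The other tested genes of this list had log2 fold changes from -0.53 (*Polh*) to 0.41 (*Fdxr*). *Sesn2* also responds to the integrated stress response, for which 3 of 9 tested genes were called higher (*Chac1*, *Asns* and *Psat1*) and 0 lower, with a summed level of 902 to 1093 CPM in cKO and 517 to 716 CPM in controls. The part of that response in the p53 targets was not tested.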

How the data were processed

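RNA-seq counts of 10 libraries were used. The authors merged technical replicates, aligned Smart-Seq2 reads to GRCm38 with STAR (2.5.0c in the submitters' notes, which also name bedtools 2.26.0), discarded reads with more than 1 alignment and deposited raw, unnormalized counts per GENCODE M16 gene. Libraries were not stranded (49.5% to 49.7% of strand-specific counts on the sense strand), so the counts that ignore strand were used. Reads over more than 1 gene are left out of these.

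Symbols and positions came from GENCODE M21, and promoter windows from RefSeq (GRCm38.p6). Genes averaging at least 10 reads were compared with edgeR 4.0.16 (TMM, quasi-likelihood test, genotype alone) in R 4.3.3, with Benjamini-Hochberg adjustment over all 11551 genes. The procedure was tested on simulated data. The 24 library pairs within a genotype differed beyond counting error (chi-square per degree of freedom 4.91 to 23.7), so no library was counted as a duplicate. RPKM is CPM per kilobase of merged exons. For single values, exact permutation tests (two-sided) were used.

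Alternatives were DESeq2 1.42.0, limma-voom (limma 3.58.1), median-of-ratios size factors, no filter, summed strand-specific counts, a covariate for reads outside genes, a replicate block and each library left out. Ratios within the sets of libraries, and counts over genes whose controls alone reached the filter, were chosen after seeing the data.

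The genes, their grouping by role and the lists were chosen with earlier results of these data known. Full values are given for called genes and for *Trp53*, *Mdm2*, *Mdm4* and *Ppm1d*, shorter ones for genes called by another test or without overlap, and, outside the set, for *Cdkn1c* and the called genes of each list, or the 2 smallest *p* where none was called. Per-library values of further genes were added after they had been seen. Figures were drawn with matplotlib 3.10.9. Some results that were computed are not reported here.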

Additional observations from a re-analysis of the deposited data

Results flagged for a closer look

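Among 36 genes examined for a control library that stood apart from the other controls (Dixon's gap test, 7 controls each), 5 were flagged, and chance alone flags about 1 in 20 groups. *Mdm2* was lowest in control replicate 5, at 52.98 CPM, with the next control at 73.7 CPM. *Eda2r* was highest in control replicate 4, at 4.22 CPM, with the next at 1.45 CPM. *Sulf2* was highest in control replicate 7, at 17.8 CPM, with the next at 7.46 CPM. *Trp53i13* was highest in control replicate 6, at 41.001 CPM, with the next at 23.3 CPM, and *Abhd4* in control replicate 1, at 83.1 CPM, with the next at 53.6 CPM. The 5 flags fell in 5 different control libraries.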

How the results depend on the processing

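The count of genes higher in cKO was 7, and 5 to 9 under the 7 settings other than leaving out a library: 7 with DESeq2, 6 with limma-voom, 9 without the filter on low counts (*Gdf15* and *Gadd45a* were added), 6 with a covariate for reads outside genes, 7 with the other size factors and 7 with summed strand-specific counts. The replicate block gave 5 (*Rps27l* and *Ckap2* were lost). Control replicates 4 to 7 share their number with no cKO library, so its genotype estimate rests on replicates 1 to 3 alone. Replicate numbers did not pair the libraries, since same-numbered libraries correlated at 0.0457, -0.101 and -0.214, and the numbers are only shared. Leaving out each library in turn gave 4 to 7, with 4 only without cKO replicate 3. The count of genes called lower was 0 under all 17 alternatives. The median log2 fold change was 0.407 to 0.607 when a library was left out, and it moved beyond the spread of the controls without cKO replicate 1, 2 or 3 (0.473, 0.407 and 0.431). The cause was not tested.

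*Phlda3*, *Psrc1*, *Dcxr* and *Cdkn1c* kept their calls in all 17 alternatives, *Eda2r* in 16, *Sulf2* in 15, *Rps27l* in 10 and *Ckap2* in 5, and no direction changed among the genes followed. Calls over all genes, 262 higher and 102 lower, became 701 and 260 without the filter, 141 and 72 with the replicate block, 300 and 210 with DESeq2 and 214 and 83 with limma-voom. Depth limits *Perp*, *Tnfrsf10b*, *Gdf15*, *Pltp*, *Tap1* and *Trp53cor1*, whose mean was below 10 reads.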

Other observations

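Marker lists of other cell classes were counted in the same fit. Among the projection neuron markers, *Neurod2* and *Neurod6*, transcription factors of excitatory neurons, were called lower (log2 fold changes -0.75, SE 0.14, and -0.98, SE 0.14). None of 8 radial glial progenitor markers was called, and the smallest *p* belonged to *Hes5* and *Nes* (adjusted *p* = 0.216 and 0.348 from edgeR's quasi-likelihood test). None of 5 intermediate progenitor markers was called, with the smallest *p* for *Neurog2* and *Insm1* (adjusted *p* = 0.155 and 0.230). Of 7 tested interneuron markers 1, *Dlx2*, was called higher (log2 fold change 1.63, SE 0.41). None of 5 erythroid genes was called, with the smallest *p* for *Hba-a2* and *Alas2* (adjusted *p* = 0.239 and 0.494), and their summed level varied from 0.360 to 2301 CPM between libraries. None of 8 microglial and 8 endothelial and pericyte markers passed the filter on low counts.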
